A study of Mus musculus with 26 samples.

Results

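The sublingual and the parotid gland of the BALB/c mouse, the mucous and the serous member of the major salivary glands, were compared on 8 of the 26 expression arrays of the series. These were the arrays titled for the 2 glands: 2 sublingual and 2 parotid pools of females and the same number of males. Each array held RNA of glands pooled from 5 animals, so n counts pools and the spread is that between pools. The other 18 arrays (submandibular, lacrimal and meibomian gland, 3 pools per sex each) entered the fit for its estimate of the spread. All mice were of the BALB/c strain, with no treatment or modified allele named in the labels, and their age was not given in the sources used here.

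Salivary acini are built of secretory cells of different kinds. Serous cells store watery, enzyme-rich granules, and the parotid of rodents is the classic serous gland, with amylase as its best known product. Mucous cells store mucins, long proteins covered with O-linked sugar chains that often end in sialic acid, and the mouse sublingual gland consists mostly of mucous acini capped by serous demilunes. A mucous cell therefore has to fold very large proteins in the endoplasmic reticulum (ER), supply activated sugars to the Golgi apparatus and attach them there.

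Levels are scaled intensities on a linear scale, on which the median probe of an array lay close to 1 (0.928 to 0.955 over the 26 arrays). Differences are sublingual minus parotid on the log2 scale, with both sexes weighted equally and the standard error of limma's fit. Values of 4 arrays are given in the order female pool A, female pool B, male pool A and male pool B. A probe was called if its adjusted p (limma, Benjamini-Hochberg over all tested probes) lay under 0.05 and its log2 difference was at least 1 in either direction. A gland in which a probe lay below the 30th percentile on all of its arrays is called dim, and a fold against it is given as a lower bound. In RNA of a whole gland, fewer cells of a type and less RNA per cell cannot be told apart.

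Of 8210 probes tested, 1128 (13.7%) were called, 444 (5.41%) higher in the sublingual and 684 (8.33%) higher in the parotid gland. The median difference over all tested probes was 0.04. The arrays of the glands did not overlap for 1007 of the called probes, and for 26.2% of all probes. The array set, a grouping of arrays read from the pattern of missing spots, coincided with the pool letter in these 8 arrays. Each set thus held both glands and both sexes, and set and pool letter cannot be told apart here. Of the 1098 called probes measured in every pool A and every pool B, 1097 had the same sign in both. The calls were made on these same pools together, so this count largely follows from the selection and is no independent check. Array maxima were 158 to 207 in pools A and 404 to 625 in pools B. The maximum of an array is called its ceiling here, and whether the signal saturated there was not tested. Female lacrimal A, of the same array set as pools A, reached 701.

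The 3 genes chosen as markers divided. Agr2, a disulfide isomerase of the ER that mucin-producing cells need for mucin assembly, read 18.1, 25.2, 21.2 and 38.2 on the sublingual and 0.657, 0.901, 0.633 and 0.714 on the parotid arrays. It was higher in the sublingual gland by 5.10 ± 0.26 (adjusted p = 6.11e-11). Spdef, a transcription factor of mucous and goblet cell differentiation, read 17.1, 15.6, 19.2 and 19.4 against 2.78, 3.68, 2.95 and 3.45, a difference of 2.48 ± 0.29 (adjusted p = 2.22e-06). For both genes every sublingual array lay above every parotid array. The level of Agr2 was 10.1 in the submandibular, 356 in the lacrimal and 14.9 in the meibomian gland, so it was not highest in the sublingual gland. That of Spdef was 7.79, 2.43 and 0.718 in the same glands.

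Amy1, salivary amylase, was not called. It read 140, 297, 136 and 327 on the sublingual and 182, 458, 150 and 492 on the parotid arrays. The groups overlapped, the difference was -0.43 ± 0.82 (adjusted p = 0.786), and 3 of the 4 parotid arrays were near the ceiling, at 80% or more of the array's maximum. Its level was 221 in the submandibular, 49.3 in the lacrimal and 0.495 in the meibomian gland, so this probe was bright in all 3 salivary glands. Whether it reads Amy1 alone or related amylase transcripts as well was not tested. Arrays matched on sex and pool letter all differed one way, with the parotid higher in 4 of 4 pairs, by 0.14 to 0.63 on the log2 scale. The overlap lay between pools A and pools B, whose array maxima differ. With sex and pool letter as a replicate block in the fit of the 8 arrays alone, Amy1 still was not called (adjusted p = 0.110). Agr2 and Spdef were thus called in the direction of the labels, and Amy1 was in that direction in the matched pairs but not called.

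**Figure D1:**
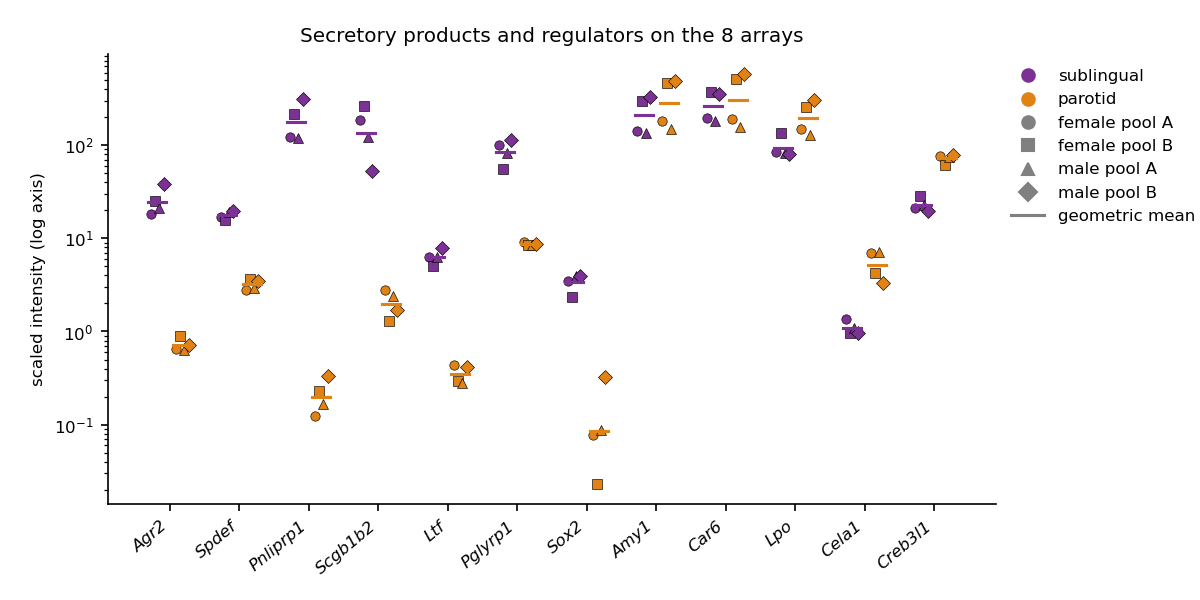
Scaled intensity (log axis) of 12 secretory products and regulators on the 4 sublingual and the 4 parotid arrays. Symbols mark the pools and lines the geometric means. Agr2, Spdef, Pnliprp1, Scgb1b2, Ltf, Pglyrp1 and Sox2 lay higher on all sublingual arrays, Cela1 and Creb3l1 lay higher on all parotid arrays, and Amy1, Car6 and Lpo overlapped.

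The promoters of both mucous markers are shown with that of Gfpt1, an enzyme of sugar supply, because all 3 genes were higher in the sublingual gland. Each is the stretch of 250 bases before the gene's start from RefSeq (build GRCm38.p6), written on the gene's strand. Capitals mark CCACGT or TGACGTG, short sequences of the kind that transcription factors of the ER stress response recognise, searched on both strands. Both motifs contain ACGT.
Agr2: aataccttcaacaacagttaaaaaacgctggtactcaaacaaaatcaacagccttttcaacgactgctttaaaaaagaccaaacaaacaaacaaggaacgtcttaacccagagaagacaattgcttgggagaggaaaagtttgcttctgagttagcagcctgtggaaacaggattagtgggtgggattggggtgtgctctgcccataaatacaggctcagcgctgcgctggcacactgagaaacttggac
Spdef: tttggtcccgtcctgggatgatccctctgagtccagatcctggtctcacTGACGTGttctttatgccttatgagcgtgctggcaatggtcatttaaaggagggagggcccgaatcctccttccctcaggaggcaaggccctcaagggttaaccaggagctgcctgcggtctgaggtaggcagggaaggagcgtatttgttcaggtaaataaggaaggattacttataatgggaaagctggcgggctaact
Gfpt1: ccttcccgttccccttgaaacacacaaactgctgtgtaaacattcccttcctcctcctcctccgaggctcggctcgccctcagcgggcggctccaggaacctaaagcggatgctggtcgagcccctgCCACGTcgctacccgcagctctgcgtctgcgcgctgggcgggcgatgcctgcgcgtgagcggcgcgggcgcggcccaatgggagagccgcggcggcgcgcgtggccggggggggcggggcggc

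The Agr2 window lies at chr12:35992675-35992924 on the + strand and holds neither motif. The Spdef window, chr17:27728952-27729201 on the - strand, holds TGACGTG, which begins 201 bases before the start. The Gfpt1 window, chr6:87042596-87042845 on the + strand, holds CCACGT, which begins 123 bases before the start. Of 32851 promoter windows of this length, 6.91% held CCACGT and 1.65% held TGACGTG. Of the 10 sugar supply genes called higher in the sublingual gland, 7 had a promoter in the table, and 1 of them (Gfpt1) held CCACGT and 0 held TGACGTG. A match describes letters in the window only.

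Among mucous granule proteins and their regulators, 10 of 15 probes were tested, with a median of -0.64. Of these, 3 (30%) were called higher in the sublingual and 2 (20%) in the parotid gland, against 5.41% and 8.33% of all probes. Muc13, a cell-surface mucin, was higher in the sublingual gland at 1.25, 0.854, 3.98 and 1.14 against 0.195, 0.390, 0.208 and 0.287 (2.51 ± 0.39, adjusted p = 7.03e-05). Its level was 7.2 in the submandibular gland, above the 1.48 of the sublingual gland. The parotid gland had the higher level of Dmbt1, a mucin-like scavenger protein of saliva (-1.40 ± 0.25, adjusted p = 0.000282). Muc1, also a membrane mucin, and Muc5ac, a gel-forming mucin, did not reach the log2 minimum of 1 (-0.69 ± 0.24 and -0.95 ± 0.32), and neither did Ern2, the mucous-cell form of the IRE1 stress sensor (-0.58 ± 0.20). Muc19 and Muc5b, gel-forming mucins of salivary mucous cells, were not analysed here. The members called higher in the sublingual gland were thus Agr2, Spdef and Muc13. At an unadjusted p under 0.05 (limma), 3 of the 10 tested probes were higher in the sublingual and 6 in the parotid gland.

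Creb3l1, an ER-bound transcription factor of secretory cells that was placed in the same list, went the other way. It read 21.2, 28.2, 22.8 and 19.8 on the sublingual and 75.8, 61.6, 75.1 and 77.9 on the parotid arrays. The groups did not overlap, and the difference was -1.67 ± 0.37 (adjusted p = 0.00284).

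Serous secretory proteins were called in both directions. Of 19 tested probes, 3 (15.8%) were called higher in each gland, against 5.41% and 8.33% of all probes. The other 13 were not called, and the median was -0.24. The largest difference of all named probes was that of a digestive enzyme gene on the sublingual side. Pnliprp1, which encodes a relative of pancreatic lipase, read 123, 215, 119 and 315 on the sublingual and 0.123, 0.230, 0.165 and 0.333 on the parotid arrays. The parotid was dim for this probe, so the level was at least 510-fold higher in the sublingual gland (fitted difference 9.80 ± 1.26, adjusted p = 7.82e-06). Its level was 2.71 in the submandibular and 44.0 in the lacrimal gland. The submandibular pools ran from 0.365 to 84.6, the highest being female pool C.

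Ltf, the iron-binding defence protein lactoferrin, read 6.36, 5.01, 6.30 and 7.81 against 0.433, 0.296, 0.279 and 0.414. It was higher in the sublingual gland by 4.17 ± 0.51 (adjusted p = 4.03e-06), with no overlap. Ctrb1, a chymotrypsinogen, was higher there by 1.62 ± 0.31 (adjusted p = 0.000564).

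On the parotid side stood Cela1, an elastase, at 1.37, 0.970, 1.10 and 0.966 in the sublingual and 6.99, 4.28, 7.14 and 3.33 in the parotid gland (-2.24 ± 0.34, adjusted p = 6.36e-05). Lpo, the lactoperoxidase of saliva, was bright in both, at 84.6, 133, 82.5 and 79.6 against 150, 254, 128 and 308. Its difference of -1.09 ± 0.25 (adjusted p = 0.00309) was called, but the arrays overlapped, and it was -0.92, -0.89 and -0.77, short of the minimum, without female sublingual A, female parotid B and male parotid B in turn. Sval2, a secreted seminal-vesicle-antigen-like protein, was higher in the parotid (-1.54 ± 0.38, adjusted p = 0.00624).

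Several abundant serous products were bright in both glands and not called. Car6, the secreted carbonic anhydrase, read 193, 371, 179 and 353 against 192, 515, 156 and 572, near the ceiling on all 8 arrays (-0.24 ± 0.35, adjusted p = 0.713). Chil3, a chitinase-like protein, read 80.5, 87.7, 87.9 and 104 against 155, 212, 142 and 234. Its arrays did not overlap, yet the difference of -1.02 ± 0.79 did not pass limma's test (adjusted p = 0.421). The standard error there pools all glands of the series and is not the spread of these 8 arrays alone. If the signal saturated, a probe near the ceiling would show a smaller difference than the RNA has, but saturation was not tested.

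Proteins that act on microbes were called on both sides. Of 26 tested probes for secreted defence proteins and antibody transport, 4 (15.4%) were higher in the sublingual and 3 (11.5%) in the parotid gland (median -0.01). The shares over all probes were 5.41% and 8.33%. The parotid calls were Dmbt1, Lpo and Reg3g, of which Reg3g was dim in both glands and measured on only 2 parotid arrays. Besides Ltf, the sublingual calls included Pglyrp1 and Sftpd. Pglyrp1, a peptidoglycan-binding protein, read 100.2, 56.0, 82.95 and 112 against 9.08, 8.54, 8.51 and 8.75 (3.29 ± 0.52, adjusted p = 9.16e-05). Sftpd, a collectin of mucosal surfaces, read 2.17, 1.18, 2.37 and 4.46 against a dim parotid and was at least 6.56-fold higher (3.19 ± 0.34, adjusted p = 7.72e-07). In both cases every sublingual array lay above the parotid range. Pigr, the receptor that carries antibodies through the epithelium, was not called (1.05 ± 0.54, adjusted p = 0.196). The fourth sublingual call, the monocyte receptor Cd14 (1.13 ± 0.39, adjusted p = 0.0480), overlapped between the glands and lost its call without any of 5 of the 8 arrays (0.86 to 1.20) and with the replicate block of sex and pool letter (adjusted p = 0.0720).

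Several genes that supply activated sugars were higher in the sublingual gland. Of 31 tested probes for sugar nucleotide supply and sulfation, 10 were called higher in the sublingual gland and 1 in the parotid, against 5.41% and 8.33% of all probes, and the list's median was 0.59 against 0.04 over all probes. The median was 0.52 in pools A alone and 0.65 in pools B alone. With any array left out, 8 to 11 probes of the list were called higher in the sublingual gland. The 10 include steps from the hexosamine pathway to the transport of activated sialic acid.

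Gfpt1 makes glucosamine 6-phosphate and sets the pace of UDP-N-acetylglucosamine synthesis. It read 6.92, 4.86, 7.12 and 9.39 on the sublingual and 1.35, 1.18, 1.23 and 1.37 on the parotid arrays, a difference of 2.43 ± 0.17 (adjusted p = 4.69e-09). The next steps of that pathway, the acetyltransferase Gnpnat1 and the mutase Pgm3, were higher by 1.66 ± 0.32 and 1.71 ± 0.26 (adjusted p = 0.000610 and 5.75e-05). Gfpt2, the sister enzyme of Gfpt1, did not reach the log2 minimum (0.93 ± 0.26, adjusted p = 0.0147, with female parotid A missing). For Gfpt1, Gnpnat1 and Pgm3 the glands did not overlap.

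The enzymes that turn this product into sialic acid were also called, 2 of them close to the minimum. Gne, which starts sialic acid synthesis, read 40.5, 27.9, 34.8 and 23.2 against 11.03, 11.2, 9.39 and 8.83 (1.62 ± 0.19, adjusted p = 2.18e-06). Nans, the sialic acid phosphate synthase, read 25.9, 22.2, 28.2 and 36.2 against 15.1, 13.5, 13.4 and 13.2 (1.01 ± 0.27, adjusted p = 0.0116). Nanp, the phosphatase of the following step, was higher by 1.06 ± 0.35 (adjusted p = 0.0365). The call of Nans ended without any of 4 arrays (0.92 to 0.9998, under the minimum of 1) and that of Nanp without any of 5 (0.80 to 1.09, adjusted p = 0.0675 to 0.173). Slc35a1, which carries CMP-sialic acid into the Golgi, read 16.5, 15.8, 14.1 and 22.3 against 4.74, 6.62, 4.44 and 5.33 (1.70 ± 0.36, adjusted p = 0.00172). None of these 4 overlapped between the glands.

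Ugp2, the source of UDP-glucose, read 58.3, 68.4, 70.3 and 165 in the sublingual gland and 13.3, 28.4, 14.6 and 22.7 in the parotid (2.13 ± 0.31, adjusted p = 3.43e-05). The mannose phosphate mutases divided between the glands. Pmm2 was higher in the sublingual gland by 1.57 ± 0.23 (adjusted p = 3.64e-05). Pmm1 read 3.02, 3.03, 3.88 and 2.67 there against 15.1, 7.17, 14.5 and 5.23 in the parotid (-1.61 ± 0.28, adjusted p = 0.000229). The sulfate side of the list was not called: the sulfate transporter Slc26a2 differed by 0.99 ± 0.31 and the sulfate-activating enzymes Papss1 and Papss2 by 0.42 ± 0.22 and -0.01 ± 0.38.

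**Figure D2:**
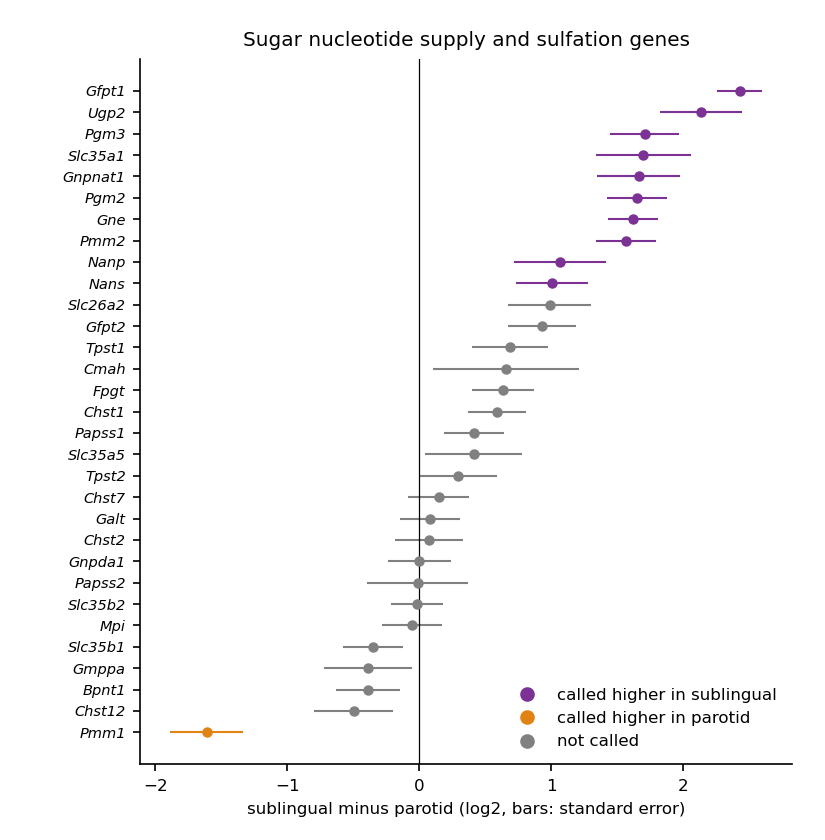
Sublingual minus parotid difference (log2) of the 31 tested genes of sugar nucleotide supply and sulfation, with bars for the standard error. Gfpt1 (2.43) and Ugp2 (2.13) lead the 10 genes called higher in the sublingual gland, and Pmm1 (-1.61) is the 1 called higher in the parotid.

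The transferases that attach sugars did not move as a group. Of 31 tested probes in the list of O-glycan enzymes, 3 (9.68%) were called higher in the sublingual and 7 (22.6%) in the parotid gland, with a median of -0.23. The list is wider than its name and also holds enzymes of other glycans, among them St6gal1 of N-glycans. The shares over all probes were 5.41% and 8.33%. The 7 were St3gal6 (2 probes), St6gal1, St6galnac1, St6galnac2, Gcnt1 and B4galt6, of which St6galnac1 lost its call without any of 3 arrays (-0.98 to -0.86). The polypeptide N-acetylgalactosaminyltransferases that start O-glycans, Galnt1, Galnt3, Galnt4 and Galnt6, were not called.

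Different sialyltransferases were higher in each gland. St3gal4, which adds sialic acid in alpha-2,3 linkage, read 47.5, 49.6, 34.8 and 80.9 in the sublingual gland and 2.18, 4.56 and 1.87 in the parotid, where male pool A was missing (4.39 ± 0.38, adjusted p = 8.66e-08). St3gal1, which acts on core O-glycans, read 13.7, 16.6, 12.3 and 22.8 against 0.980, 1.98, 1.56 and 1.60 (3.42 ± 0.42, adjusted p = 3.81e-06). Every sublingual array exceeded the parotid arrays for both.

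St3gal6, of the same family, was higher in the parotid gland on both of its probes (-2.81 ± 0.30 and -2.01 ± 0.37, adjusted p = 7.05e-07 and 0.000493). The first of these read 3.61, 5.26, 4.07 and 5.11 in the sublingual and 38.3, 23.9, 37.4 and 27.8 in the parotid gland. St6gal1, which adds alpha-2,6-linked sialic acid to N-glycans, was also higher in the parotid, at 2.39, 1.73, 2.60 and 2.72 against 0.653, 0.871, 0.639 and 0.757 (-1.68 ± 0.29, adjusted p = 0.000480). St6galnac2 was called on the same side with overlapping arrays (-1.45 ± 0.32, adjusted p = 0.00241). St6galnac3, at 22.9 in the sublingual and 111 in the parotid gland, did not overlap but did not pass the test (-2.28 ± 0.93, adjusted p = 0.0970).

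N-glycan synthesis and trimming held 27 tested probes, with 2 (7.41%) called in each direction and a median of 0.15. Those shares lay near the 5.41% and 8.33% of all probes. The oligosaccharyltransferase subunit Tusc3 was higher in the sublingual gland (1.12 ± 0.23, adjusted p = 0.00149), but was 0.93 to 0.99 without male sublingual B, female parotid A or male parotid A. The mannosidases Man1a and Man2a1 were higher in the parotid (-1.99 ± 0.28, with female parotid B missing, and -1.07 ± 0.30, adjusted p = 2.73e-05 and 0.0132). Man2a1 was between -0.82 and -0.95 without female sublingual A, male sublingual A, female parotid B or male parotid B. The probes of Mgat3, which adds a bisecting sugar, disagreed, at 2.86 ± 0.29 and 0.16 ± 0.22.

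Most genes of the core secretory machinery were not called, as was true of all probes. A few were higher in the sublingual gland. Over all probes, 5.41% were called higher in the sublingual and 8.33% in the parotid gland. Of 18 tested probes for signal peptide recognition and translocation into the ER, limma called 0, at a median of 0.06, and 2 had an unadjusted p under 0.05. Of 45 for ER folding and the unfolded protein response, 4 (8.89%) were called higher in the sublingual and 1 (2.22%) in the parotid gland (median 0.29). The abundant chaperones Hspa5 and Calr and the disulfide isomerase P4hb were not called (0.38 ± 0.25, -0.09 ± 0.37 and -0.06 ± 0.27).

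Dnajc10, an ER reductase that breaks wrong disulfide bonds, read 63.8, 83.2, 109 and 220 on the sublingual and 11.9, 15.2, 11.1 and 9.91 on the parotid arrays (3.16 ± 0.49, adjusted p = 7.94e-05). Ern1, the IRE1 sensor of unfolded protein, read 3.65, 2.47, 3.35 and 4.16 against 0.465, 0.466, 0.498 and 0.547 (2.76 ± 0.29, adjusted p = 7.72e-07). The disulfide isomerases Pdia4 and Pdia5 were higher by 1.42 ± 0.21 and 1.58 ± 0.31 (adjusted p = 4.68e-05 and 0.000813). Syvn1, the ubiquitin ligase of ER-associated degradation, was higher in the parotid gland, at 13.9, 8.88, 12.03 and 11.96 against 3.17, 5.18, 2.91 and 3.32 (-1.70 ± 0.32, adjusted p = 0.000499). Xbp1, the transcription factor that IRE1 activates by splicing, was not called (0.37 ± 0.24, adjusted p = 0.318).

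In traffic from the ER to the Golgi, 4 of 55 tested probes (7.27%) were called higher in the sublingual and 1 (1.82%) in the parotid gland (median 0.40). The sublingual share lay near the 5.41% of all probes. Sec23b, a component of the vesicle coat that leaves the ER, read 32.8, 21.7, 35.5 and 54.7 against 3.94, 6.46, 5.15 and 5.54 (2.72 ± 0.24, adjusted p = 7.75e-08). Kdelr2, which returns escaped ER proteins, was higher by 1.16 ± 0.22, and Ergic1 and Trappc4 by 1.35 ± 0.29 and 1.14 ± 0.27 (adjusted p = 0.000482, 0.00185 and 0.00419). Without male sublingual B the difference of Trappc4 was 0.97. Sec16b, an organiser of ER exit sites, was higher in the parotid gland (-1.73 ± 0.41, adjusted p = 0.00409). Sec23a, the sister of Sec23b, was not called.

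The exocytosis machinery differed by member: of 55 tested probes, 6 (10.9%) were called in each direction (median 0.26). The shares over all probes were 5.41% and 8.33%. Rab27a and Rab27b, small GTPases of secretory granules, were higher in the sublingual gland by 1.99 ± 0.35 and 1.97 ± 0.37 (adjusted p = 0.000300 and 0.000554). Rab27b read 3.49, 2.31, 2.44 and 2.16 against 0.740, 0.785, 0.750 and 0.409. Syt7, a calcium sensor of fusion, was at least 1.46-fold higher there over a dim parotid (2.56 ± 0.55, adjusted p = 0.00205). Syt8, of the same family, was dim in the sublingual gland and read 2.51, 2.42, 2.69 and 3.27 in the parotid, at least 8.10-fold higher (-3.50 ± 0.28, adjusted p = 2.55e-08). Rab3d and Vamp8, both known on acinar granules, were not called (0.45 ± 0.40 and 0.75 ± 0.36).

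Fluid and electrolyte transport had 7 calls (13.7%) on the sublingual and 8 (15.7%) on the parotid side among 51 tested probes (median -0.08). The shares over all probes were 5.41% and 8.33%. The genes at the base of acinar fluid secretion were not called. Slc12a2, the chloride importer of acinar cells, read 42.7, 41.7, 43.5 and 50.3 against 42.6, 44.2, 42.8 and 51.4 (-0.02 ± 0.19, adjusted p = 0.958). Aqp5, the water channel of the acinar surface, differed by -0.19 ± 0.26 (adjusted p = 0.685). A p that misses the threshold does not show that the glands are alike in either gene.

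Among potassium channel genes, some were called in each direction. Kcne1, a regulatory channel subunit, read 7.80, 4.23, 7.78 and 10.7 in the sublingual and 0.225, 0.263, 0.319 and 0.400 in the parotid gland (4.62 ± 0.29, adjusted p = 1.51e-09). Its partner Kcnq1 was dim in both. Kcnk1, a leak channel, was higher in the sublingual gland by 1.48 ± 0.26 (adjusted p = 0.000267). Kcnk2, another leak channel, read 11.1, 43.0, 9.12 and 38.4 against 75.2, 107, 64.7 and 182 (-2.28 ± 0.61, adjusted p = 0.0141), a call lost without female sublingual A, male sublingual A or male parotid B (-1.91 to -1.76). The calcium channel Trpv6 was higher in the sublingual gland (1.96 ± 0.25, adjusted p = 5.38e-06), and the sodium pump regulator Fxyd4 in the parotid (-1.49 ± 0.18, adjusted p = 3.39e-06).

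Receptors and second messengers that drive secretion had 4 sublingual (5.88%) and 9 parotid calls (13.2%) among 68 tested probes (median -0.05). The shares over all probes were 5.41% and 8.33%. Hrh2, the histamine H2 receptor, read 4.52, 6.51, 4.88 and 6.37 against 25.7, 16.99, 27.1 and 17.6 (-1.96 ± 0.28, adjusted p = 2.31e-05). Enzymes that break down cyclic AMP were higher in the parotid as well, with differences of -1.79 ± 0.30 for Pde7a and -1.77 ± 0.47 for Pde4a (adjusted p = 0.000185 and 0.0102). Chrm3, the muscarinic receptor of salivary acini, was low in both glands on this probe and not called (0.61 ± 0.42, adjusted p = 0.357). The calls Atp2a1 and Ryr1 of this list are genes of skeletal muscle, and Ryr1 lost its call without any of 6 arrays (-1.89 to -1.59). Without female sublingual A, the sublingual calls of the list were 1.

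Transcription factors of gland lineages included 5 sublingual and 7 parotid calls among 62 tested probes (median -0.17). The sublingual share was 8.06%, against 5.41% of all probes. Sox2, a factor of acinar progenitors, read 3.47, 2.37, 3.97 and 3.94 in the sublingual gland. In the parotid it was dim, at 0.0778, 0.0234, 0.0880 and 0.327, the second of these at the floor given to the lowest values, so it was at least 9.68-fold higher in the sublingual gland (5.31 ± 0.71, adjusted p = 1.17e-05). It was low in the other 3 glands too, at 0.1498 in the submandibular, 0.212 in the lacrimal and 0.0496 in the meibomian gland. Tbx1 was at least 2.09-fold higher over a dim parotid (1.97 ± 0.47, adjusted p = 0.00465).

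The 7 parotid calls (11.3% of the list, against 8.33% of all probes) included the homeobox factors Dlx5 and Dlx3, while the probe named for the homeobox gene Hoxc4 was among the 15 highest on the sublingual side. Dlx5 read 2.74, 3.07, 1.66 and 2.07 in the sublingual and 16.5, 15.4, 15.2 and 24.4 in the parotid gland (-2.92 ± 0.27, adjusted p = 1.38e-07). Its relative Dlx3 read 8.16, 15.9, 7.13 and 13.6 against 20.3, 26.4, 24.7 and 37.8 (-1.33 ± 0.27, adjusted p = 0.00102). Pax9 differed by -1.75 ± 0.39, Sox10 by -1.30 ± 0.17 and Foxc1 by -1.03 ± 0.28 (adjusted p = 0.00293, 1.04e-05 and 0.0119). Foxc1 lost its call without any of 4 arrays (-0.96 to -0.83). Without female or male sublingual A, the calls of the list were 3 in the sublingual and 5 in the parotid gland. Bhlha15, a factor of serous and other enzyme-secreting cells, was not called (-0.63 ± 0.61, adjusted p = 0.541).

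**Figure D3:**
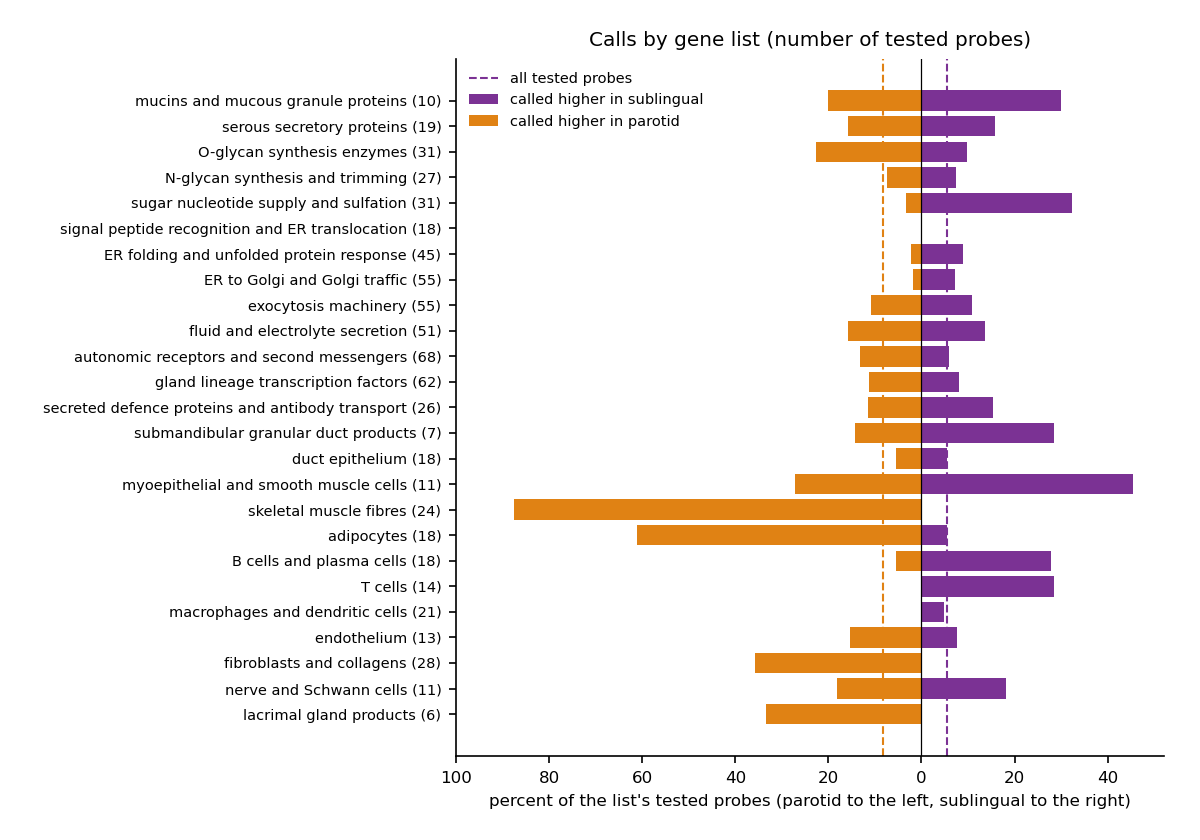
Percent of each list's tested probes (number in brackets) called higher in the sublingual gland, to the right, and in the parotid gland, to the left. Dashed lines give the share over all tested probes, 5.41% and 8.33%. On the sublingual side the list of myoepithelial and smooth muscle cells had the highest share, with 5 of 11, followed by sugar nucleotide supply with 10 of 31. Skeletal muscle fibres (21 of 24) and adipocytes (11 of 18) had the highest shares on the parotid side.

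Markers of other cell types differed between the glands as well, and their part in the results above was not tested. The parotid arrays carried RNA of skeletal muscle. Of 24 tested muscle probes, limma called 21 (87.5%) higher in the parotid and 0 in the sublingual gland, against 8.33% and 5.41% of all probes. The median was -3.98, and the counts were likewise 21 and 0 at an unadjusted p under 0.05. The markers' summed level was 6.94 to 10.3 on the sublingual arrays and 75.0 to 318 on the parotid arrays, where female pool A was the lowest.

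Pvalb, the calcium buffer of fast fibres, read 6.70, 27.4, 31.9 and 26.2 in the parotid and was dim in the sublingual gland, a difference of at least 59.3-fold (-7.82 ± 0.65, adjusted p = 4.03e-08). Mylpf, a fast myosin light chain, read 0.2999, 0.479, 0.311 and 0.403 against 7.59, 29.7, 25.4 and 31.7 (-5.82 ± 0.35, adjusted p = 8.31e-10). The 15 lowest differences of all called probes with a symbol were those of Tnnc2, Pvalb, Acta1, Atp2a1, Pgam2, Tnnt3, Mylpf, Mstn, Ckm, Ckmt2, Myl1, Txlnb, Apobec2, Trdn and Actn3, all known from striated muscle. Their differences ran from -7.94 ± 0.81 (Tnnc2, with male parotid A missing) to -4.13 ± 0.42 (Actn3).

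Fat and connective tissue markers were also higher in the parotid. Among 18 adipocyte probes, 11 were called higher in the parotid and 1, Scd1, in the sublingual gland (median -1.22). With any array left out, 6 to 12 were called higher in the parotid, the fewest without female parotid B. Their sum was 117 to 151 in the sublingual and 204 to 535 in the parotid gland. The fat hormone Adipoq read 10.6, 19.9, 9.54 and 14.2 against 25.1, 89.0, 37.2 and 39.8 (-1.71 ± 0.40, adjusted p = 0.00357). Among 28 fibroblast and collagen probes, limma called 10 (35.7%) higher in the parotid and 0 in the sublingual gland (median -0.90). Over all probes the shares were 8.33% and 5.41%. At an unadjusted p under 0.05 the counts were 14 and 2. The sums were 96.8 to 126 in the sublingual and 129 to 190 in the parotid gland. Dpt, a matrix protein, led the fibroblast and collagen probes (-2.09 ± 0.28, adjusted p = 1.11e-05). With any array left out, 6 to 8 of these probes were called higher in the parotid. Col1a1 lost its call without male parotid A, at -1.44.

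Some lymphocyte markers were higher in the sublingual gland. Of 18 B and plasma cell probes, 5 (27.8%) were called higher there and 1 (5.56%), Irf4, in the parotid (median 0.89). Of 14 T cell probes, limma called 4 (28.6%) and 0 (median 0.55), or 6 and 1 at an unadjusted p under 0.05. The shares over all probes were 5.41% and 8.33%. The sums overlapped, at 43.2 to 71.7 against 20.03 to 48.1 for B cells and at 34.3 to 46.9 against 25.0 to 41.3 for T cells. Ighm, the heavy chain of IgM, read 11.2, 17.6, 10.9 and 12.05 against 9.37, 1.66, 2.29 and 4.53 (1.83 ± 0.44, adjusted p = 0.00512). Ms4a1, the B cell marker CD20, read 4.39, 5.40, 6.07 and 5.72 against 3.20, 0.598, 0.434 and 1.21 (2.42 ± 0.75, adjusted p = 0.0271) and lost its call without any of 6 of the 8 arrays (1.82 to 2.49). Without female parotid B all 4 T cell calls were lost, with differences of 1.26, 1.19, 0.96 and 1.07 for Cd3g, Cd5, Cd3d and Cd8b1, and 1 B cell probe was called higher in the sublingual gland. In the fit of the 8 arrays alone with sex and pool letter as a replicate block, these 4 also missed the threshold (adjusted p = 0.0501 to 0.0932). With any array left out, the sublingual calls numbered 0 to 5 for T cells and 1 to 7 for B cells. Macrophage probes were called in 1 of 21 cases (Cd14, median -0.09), and their sums overlapped, at 150 to 235 and 125 to 173.

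Contractile genes mark myoepithelial and smooth muscle cells, which squeeze acini and line vessels. Of 11 such probes, 5 (45.5%) were called higher in the sublingual gland and 3 (27.3%) in the parotid (median 0.66). The shares over all probes were 5.41% and 8.33%. Acta2, smooth muscle actin, read 28.6, 17.6, 29.3 and 29.0 against 4.59, 4.26, 4.93 and 3.17 (2.61 ± 0.35, adjusted p = 1.21e-05). Cnn1, a calponin, was higher by 3.02 ± 0.41 (adjusted p = 1.94e-05, with female sublingual A missing), and Myh11, smooth muscle myosin, by 2.23 ± 0.30 (adjusted p = 1.49e-05). The 3 probes on the parotid side were Tpm1, Tpm2 and Des, which striated muscle also expresses. The sums overlapped, at 48.6 to 71.9 and 30.7 to 63.6, but not without Tpm2, at 38.5 to 64.4 and 14.3 to 20.6.

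Duct epithelium had 1 call (5.56%) in each direction among 18 tested probes (median 0.14), near the 5.41% and 8.33% of all probes. These were the keratin Krt18 in the sublingual gland (1.18 ± 0.27, adjusted p = 0.00372) and Fxyd4 in the parotid. Krt18 was 0.91 without male sublingual B and 0.92 without male parotid A. Of 13 endothelial probes 1 (7.69%) was called in the sublingual and 2 (15.4%) in the parotid gland (median -0.30). Pecam1, which marks endothelium throughout, was not called (0.32 ± 0.27). The endothelial sums of 48.2 to 126 and 112 to 301 were carried by the probe named for Tal1 (32.9 to 109 and 98.9 to 285), and without it they overlapped, at 9.63 to 18.9 and 13.1 to 15.9. Of 11 nerve and Schwann cell probes 2 (18.2%) were called in each direction (median -0.14), with sums of 112 to 175 and 38.02 to 48.9. The probes named for Gfap and Th were the main part of these sums on the sublingual side. Th was brighter in the submandibular gland, at 203 in females and 145 in males, against 88.5 and 24.7 in the sublingual gland. Without Gfap the sums overlapped, at 44.2 to 120 and 36.7 to 47.9. Of 6 lacrimal gland products, limma called 2 (33.3%) higher in the parotid and 0 in the sublingual gland (median -0.48). At an unadjusted p under 0.05 the counts were 2 and 1. The sums were 6.24 to 9.06 in the sublingual and 12.5 to 27.7 in the parotid gland.

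**Figure D4:**
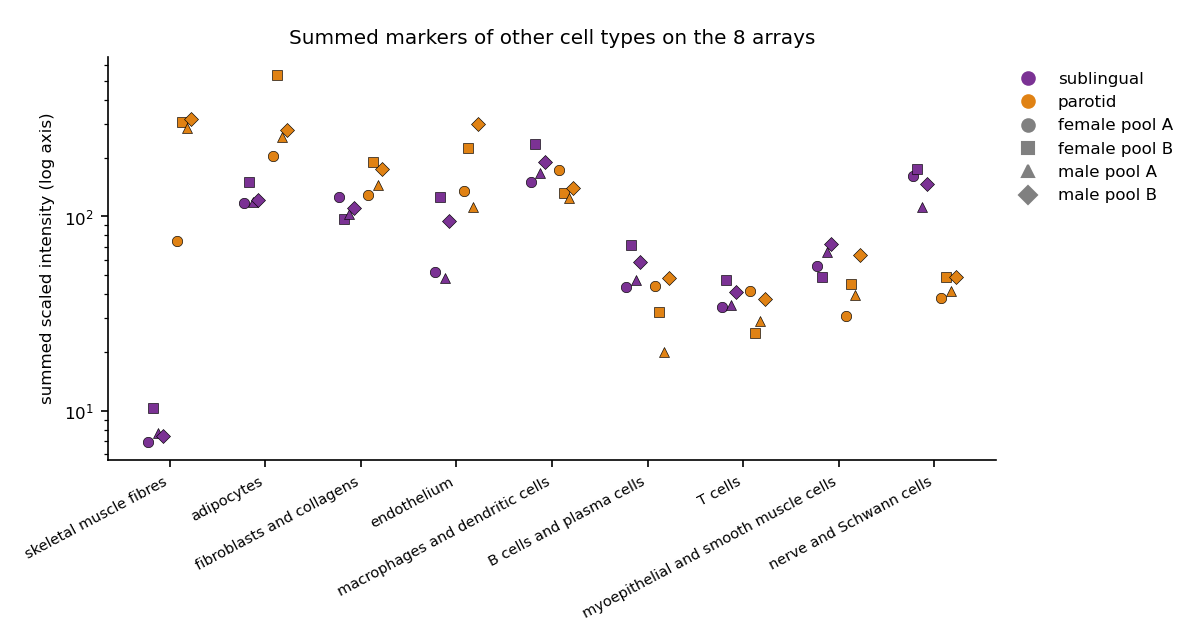
Summed scaled intensity (log axis) of the markers of 9 other cell types on each sublingual and parotid array, over probes measured on all 8. Skeletal muscle markers summed to 6.94 to 10.3 on the sublingual and 75.0 to 318 on the parotid arrays, with female parotid A the lowest of the parotid arrays.

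The submandibular gland lies against the sublingual gland, and 2 products of its granular ducts were called on the sublingual side. Of 7 tested probes, 2 (28.6%) were called higher in the sublingual gland and 1 (14.3%) in the parotid (median 0.32). The shares over all probes were 5.41% and 8.33%. Their sums overlapped, at 200.1 to 353 and 142 to 370, with the probe named for Klk1b5 as the main part; without it they were 6.51 to 148 and 3.83 to 4.96. Egf, the growth factor of granular ducts, read 7.01, 3.09, 86.5 and 28.6 in the sublingual gland against 1.87, 1.63, 2.15 and 2.19 (2.97 ± 0.43, adjusted p = 3.68e-05). The kallikrein Klk1b24 read 2.27, 1.43, 60.4 and 19.0 against 0.526, 1.14, 0.866 and 1.11 (3.16 ± 0.40, adjusted p = 2.17e-05). Both were high in the male sublingual pools, and both were higher in the male than in the female submandibular gland, at 207 against 14.5 for Egf and 190 against 6.14 for Klk1b24. Smr2, a submandibular secretory protein measured in pools A only, was higher in the parotid (-2.18 ± 0.40, adjusted p = 0.00199).

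The 15 highest differences among named probes divided by their level in the submandibular gland. Scgb1b2, Il3, Fgf5 and Plcl2 were brighter there than in the sublingual gland, at 332, 169, 286 and 243 against 133, 32.3, 123 and 43.8. Scgb1b2, an androgen-binding-protein subunit of saliva, read 188, 265, 122 and 52.2 on the sublingual and 2.82, 1.31, 2.38 and 1.70 on the parotid arrays (6.08 ± 0.34, adjusted p = 2.44e-10). The probe named for Plcl2 read 105, 99.0, 35.7 and 9.91 against 1.87, 1.40, 1.47 and 1.91 (4.73 ± 0.38, adjusted p = 2.60e-08), and that named for Il3 read 80.3, 80.2, 26.5 and 6.34 (4.998 ± 0.40, adjusted p = 2.50e-08). For all 4 probes the female sublingual pools lay above the male pools, and the female submandibular level lay above the male level, 400.3 against 275 for Scgb1b2 and 305 against 194 for Plcl2. The share of submandibular RNA in the sublingual pools was not tested.

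The other 11 of the 15 were dimmer in the submandibular than in the sublingual gland. Besides Pnliprp1, Sox2 and Agr2 these were Fam3b, Dmtn, Casp12, Dffa, Isg20 and Htr2c and the probes named for Hoxc4 and Gfap. Female submandibular C stood far above the other submandibular pools for several of them. It read 84.6 for Pnliprp1 (others 0.365 to 3.87), 42.6 for Dffa (1.54 to 3.67) and 29.4 for Casp12 (1.20 to 3.17). For Agr2 it read 20.3 (4.29 to 16.7). This array also entered the fit's estimate of the spread, and why it differed was not tested. Fam3b, a secreted cytokine-like protein, read 14.1, 15.3, 13.4 and 26.9 over a dim parotid, at least 48.0-fold higher (6.78 ± 0.67, adjusted p = 3.06e-07). Dmtn, an actin-bundling protein, read 42.3, 31.2, 32.8 and 87.7 against 0.299, 0.278, 0.362 and 0.443 (7.02 ± 0.69, adjusted p = 2.62e-07). Casp12, a caspase of the ER, read 68.4, 117, 73.4 and 180 against 1.46, 2.53, 1.29 and 2.47 (5.78 ± 0.65, adjusted p = 1.38e-06). The probe named for Dffa, a nuclease inhibitor, was higher by 5.67 ± 0.70, that for Isg20, a ribonuclease, by 5.15 ± 0.54 and that for Htr2c, a serotonin receptor, by 4.93 ± 0.59. What each probe reads beyond its annotation was not tested.

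With the muscle genes set aside, other genes showed large differences towards the parotid, of which 5 are named here after their values were seen. Bmpr1b, a receptor for bone morphogenetic proteins, read 7.23, 22.2, 6.55 and 14.0 in the sublingual and 81.0, 91.8, 65.7 and 161 in the parotid gland (-3.10 ± 0.33, adjusted p = 7.21e-07). Mst1r, a receptor tyrosine kinase, read 7.15, 27.4, 7.13 and 22.9 against 70.5, 127, 78.0 and 203 (-3.03 ± 0.44, adjusted p = 3.89e-05). The keratin Krt6a and the transcription factors Myb and Tcf23 were higher in the parotid, with differences of -3.19 ± 0.28, -3.01 ± 0.25 and -3.46 ± 0.29 (adjusted p = 7.28e-08, 3.79e-08 and 4.08e-08). None of these 5 overlapped between the glands.

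**Figure D5:**
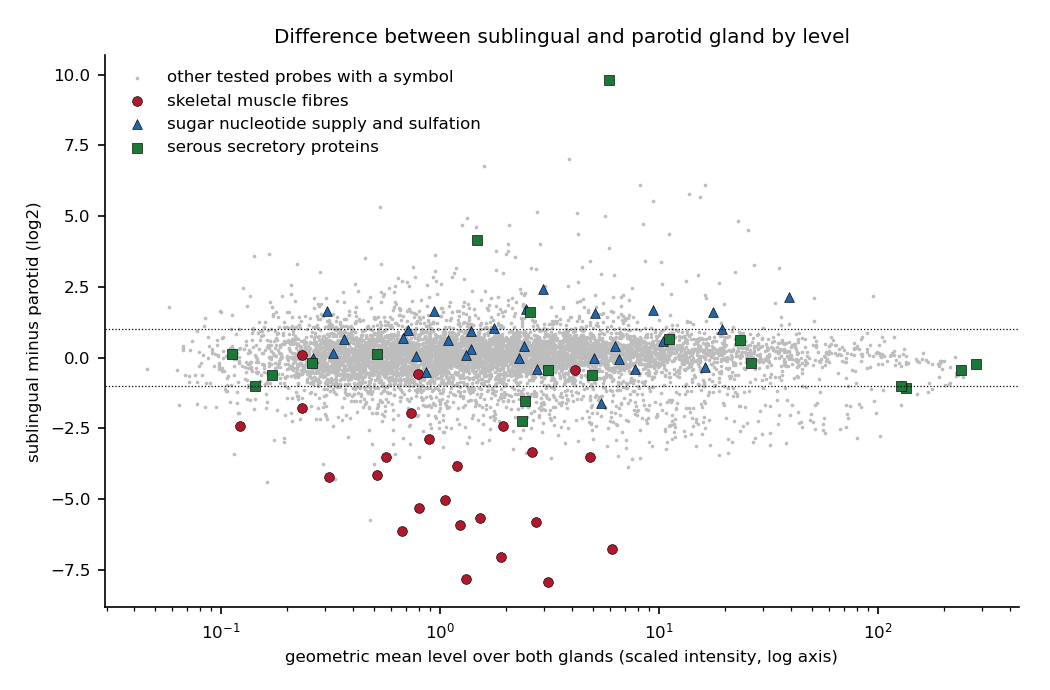
Sublingual minus parotid difference (log2) against the geometric mean level of both glands (scaled intensity, log axis) for all tested probes with a symbol, with 3 lists marked and dotted lines at a difference of 1 in either direction. Skeletal muscle probes reach down to -7.94 (Tnnc2), serous products spread from -2.24 (Cela1) to 9.80 (Pnliprp1), and most sugar supply genes lie above 0.

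Did the difference between the glands depend on sex? Of the 1128 called probes, 1121 had the same sign in females and in males. The calls were made on the mean of both sexes, so this count largely follows from the selection and cannot answer the question. The interaction of sex and gland was called (limma, adjusted p under 0.05) for 2 of 8210 probes (0.0244%), neither with a gene symbol, and 160 had an unadjusted p under 0.05. The 5 named genes with the smallest interaction p, none of them called for the interaction, were Mymk, Caly, Per1, Slco1a6 and Ccl4. The probe named for Mymk read 82.8 and 69.5 in the female and 13.5 and 1.81 in the male sublingual pools, with parotid values of 0.622 to 1.35. It too was brighter in the submandibular gland, at 282 in females and 158 in males. The probe named for Ccl4, a chemokine, read 71.8, 75.1, 29.4 and 18.8 in the sublingual gland, and its submandibular level was 159 in females and 118 in males.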

How the data were processed

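For each of 10500 probes the deposited table gave a linear intensity on every array. What the authors did to make these intensity values was not given in the sources used here, nor were the platform and the scanner. The values behave as scaled and background-subtracted: array medians lay between 0.928 and 0.955, and negative values reached -0.699. Cells of -1 (0.821% of all, 687 of them on the 8 arrays used) were taken as missing. Values below 0.0234 (percentile 1 of the positive ones) were set to 0.0234 before log2 was taken. Probes had to reach percentile 30 on every measured array of any of the 10 groups (sex by gland), with at least 2 arrays measured. This left 8211 probes, and 1 of them, with no measured array in a group of the contrast, was not tested.

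The fit (limma 3.58.1 under R 4.3.3) took all 26 arrays and 10 group means, with 16 residual and 4.11 prior degrees of freedom. Benjamini-Hochberg adjustment ran over 8210 probes. Of the tested probes, 7259 had 1 symbol, for 7155 genes. Symbols came from the platform annotation given with the series, and 8975 of 8983 on the array matched a RefSeq table by Entrez identifier. A 2-sided interaction term asked whether the gland difference depended on sex. The script was tested on simulated data first. The pool letter was checked as a pairing: over 7555 probes, deviations of same-letter arrays from their group means correlated at 0.508 to 0.650 in all 6 pairs of groups, so the letter (the replicate block) was tried as an alternative. The array sets, read from missing cells (correlations of at least 0.384 within and at most 0.0396 between sets), coincide with the letter here. Alternatives also covered the floor, the filter, quantile normalization, the arrays used, each sex, each pool letter and each array left out.

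Named genes are the 15 highest and 15 lowest called differences without overlap among probes with 1 symbol, the 3 markers, up to 6 members per list by smallest p, further members given for their step in a pathway or chosen after their values were seen, and the 5 smallest interaction p-values. The members and lists were chosen with earlier results of these data known. The labels call the pools biological replicates. The number of arrays limits the precision.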

Additional observations from a re-analysis of the deposited data

Results flagged for a closer look

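In 26 of 338 groups of 4 arrays (1 gland, 1 gene) the highest or lowest array stood far from the other 3 by Dixon's criterion, where chance gives about 1 in 20. Female parotid A was low for the muscle genes Pvalb (6.70 against a median of 27.4 over the other 3 arrays), Pgam2 (2.03 against 7.82), Tnnt3 (3.58 against 13.6) and Mylpf (7.59 against 29.7), as it was in the summed muscle markers. It was also low for Ryr1, at 0.289, Myh11, at 1.78, and Pde7a, at 5.97, and high for Nans, at 15.1. Female parotid B was low for Creb3l1 (61.6), Dpm2 (1.31), Irf4 (1.57) and Myb (7.07) and high for Kit (3.06) and the adipocyte regulator Pparg (2.74). That pool also had the highest summed adipocyte markers.

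Male parotid B was high for Dlx5 (24.4), Krt18 (44.2) and the probe named for Rsph6a (1.04) and low for Rab27b (0.409). Male sublingual B was high for Krt18 (106), Nanp (4.18) and the probe named for Htr2c (15.3 against 5.77). Female sublingual B was high for Lpo (133) and Myl1 (0.355) and low for Acta2 (17.6), Syt7 (0.283) and Cd163 (0.0421).

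For 2 probes without a gene symbol the gland difference differed between the sexes by limma's interaction term, male minus female. It was -2.54 for probe 933 (adjusted p = 0.0391) and 3.35 for probe 10400 (adjusted p = 0.00596).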

How the results depend on the processing

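The count of 1128 called probes was between 935 and 1136 when 1 array was left out at a time, with 896 to 1008 of the original calls among them. With quantile normalization it was 1159, and with the array set as a block 1234. With the replicate block (sex and pool letter, 26 arrays) it was 1099, of which 1082 were shared with the original calls. With sex and pool letter as a replicate block in the 8 arrays alone it was 1264, of which 1085 were shared. Females alone gave 626 (243 higher in the sublingual and 383 in the parotid gland), and pools B alone 616 (266 and 350). Without the log2 minimum, 695 were higher in the sublingual gland. The 2 calls of the interaction became 0 with the 8 arrays alone (129 had an unadjusted p under 0.05), 4 with the pool letter as a replicate block, 8 with the array set as a block, and 1 to 5 with an array left out.

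Of 188 single genes followed, 151 were called, and 81 of these stayed called under all 25 alternatives. Signs turned for Man1a, which read 0.45 with missing cells raised to the floor, for Odc1, -1.55 under the same setting, for Mucl1, -0.70 in males alone, and for Slco1a6, -0.40 in females alone. Of these, Man1a and Slco1a6 were called, and the turn of Man1a comes from 1 missing parotid array. Differences of probes dim in both glands are limited by signal, and those of probes near the ceiling, such as Amy1 and Car6, may be.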
